A study of Mus musculus with 24 samples.

Results

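The levels of 9 genes of the histone acetylation machinery were examined in the striatum of Huntington's disease mice. Of these, 7 encode histone acetyltransferases, namely Crebbp, Ep300, Kat2a, Kat2b, Kat5, Kat6a and Kat7, and Brd2 and Brd3 encode proteins that bind acetylated lysines. The genes were listed by name, with earlier results of these data known. Each of the 9 was found among the 24340 genes that the 6 deposited tables share. RNA-seq had been performed on striatal total RNA of 24 male mice, of which 5 were vehicle-treated WT (WT-vehicle), 6 vehicle-treated R6/1 (R6/1-vehicle), 6 RGFP109-treated WT (WT-RGFP109) and 7 RGFP109-treated R6/1 animals (R6/1-RGFP109). R6/1 mice are a transgenic model that is hemizygous for exon 1 of the human huntingtin gene with an expanded CAG repeat, kept on the C57BL/6J background, and the WT mice were littermates without the transgene. The endogenous mouse huntingtin gene is intact in all groups, so that the model expresses a fragment on top of the normal protein. RGFP109 inhibits the histone deacetylases HDAC1 and HDAC3. It was given by intraperitoneal injection at 30 mg/kg over 23 days, the vehicle groups received the same dimethyl sulfoxide and saline solution without the inhibitor, injections began at an age of 11 to 14 weeks and ended at 14 to 17 weeks, and tissue was taken 18 h after the final injection.

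Histone acetyltransferases transfer acetyl groups from acetyl-CoA to lysines of histones and other proteins, histone deacetylases such as HDAC1 and HDAC3 remove them, and bromodomain proteins bind the modified lysines and recruit the transcription machinery. CBP and p300, the products of Crebbp and Ep300, are co-activators that are brought to enhancers by CREB and many other factors. They have long been studied in Huntington's disease because mutant huntingtin fragments can bind CBP and draw it into aggregates. The GNAT enzymes GCN5 (Kat2a) and PCAF (Kat2b) work in the SAGA and ATAC complexes, and the MYST enzymes TIP60 (Kat5), MOZ (Kat6a) and HBO1 (Kat7) in NuA4, MOZ and HBO1 complexes. BRD2 and BRD3 are BET proteins, readers of acetylated histones with a pair of bromodomains each. RNA levels of these genes say nothing of the activity or the location of the proteins.

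Each deposited table holds 1 FPKM value (fragments scaled for exon length and for library size) for each of a pair of groups, pooled by the authors over the libraries of the group. Values per library and the authors' own p-values were not used here, so that all differences below are descriptions with no SD and no test. In place of a replicate error, the same difference was set beside its counterpart in mice that it shares none with, namely the genotype difference in vehicle-treated and in RGFP109-treated mice, and the treatment difference in R6/1 and in WT mice. Over 13652 genes, the genotype differences in vehicle-treated and RGFP109-treated mice were apart by a median of 0.087 on the log2 scale. For the treatment differences in R6/1 and WT mice, the median gap over 13405 genes was 0.086. The deposited values of 1 group differed between tables by a common factor, with a ratio of at most 1.04 between the highest and the lowest of its tables, and levels are given below as the mean over 3 tables on a common scale. Differences are log2 ratios within 1 table after adding 0.05 FPKM, over genes of at least 1 FPKM in either group.

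Several of the genes are close relatives, so the sequences show how far 51-base reads can tell them apart. The longest protein-coding GENCODE vM21 transcripts of Crebbp and Ep300 had 70.2% identical bases over the aligned coding sequence, and their longest identical coding stretch was 29 bases. For Kat2a and Kat2b these values were 71.5% and 19 bases, and for Brd2 and Brd3 70.3% and 20 bases. The stretches follow, 5′ to 3′ on the coding strand of build GRCm38 (mm10), with the identical bases in capitals. They lie in Crebbp exons 18 to 19 (chr16:4107500-4108137, minus strand), Ep300 exons 18 to 19 (chr15:81631752-81632440, plus strand), Kat2a exons 2 to 3 (chr11:100711397-100711839, minus strand), Kat2b exons 2 to 3 (chr17:53610964-53624433, plus strand), Brd2 exons 7 to 8 (chr17:34114441-34114961, minus strand) and Brd3 exons 6 to 7 (chr2:27457000-27459528, minus strand), with the introns left out.
Crebbp: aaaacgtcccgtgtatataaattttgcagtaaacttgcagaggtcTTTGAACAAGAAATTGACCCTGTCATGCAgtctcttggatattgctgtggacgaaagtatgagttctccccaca
Ep300: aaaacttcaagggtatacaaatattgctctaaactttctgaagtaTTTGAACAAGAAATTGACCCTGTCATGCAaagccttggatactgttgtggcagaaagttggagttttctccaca
Kat2a: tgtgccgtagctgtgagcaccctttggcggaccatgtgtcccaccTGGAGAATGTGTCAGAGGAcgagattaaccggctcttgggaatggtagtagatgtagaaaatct
Kat2b: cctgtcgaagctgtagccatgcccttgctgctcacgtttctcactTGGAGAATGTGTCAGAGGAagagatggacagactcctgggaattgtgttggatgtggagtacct
Brd2: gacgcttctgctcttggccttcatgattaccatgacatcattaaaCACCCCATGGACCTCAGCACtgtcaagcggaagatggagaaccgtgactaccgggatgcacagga
Brd3: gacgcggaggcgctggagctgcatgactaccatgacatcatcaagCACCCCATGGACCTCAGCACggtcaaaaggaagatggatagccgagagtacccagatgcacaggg

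No 51-base window of any of the 9 transcripts occurred exactly in a transcript of another of the 9 genes. Windows that also occurred in a gene outside the 9 made up 17.9% of Kat5 (all shared with Rnaseh2c), 7.45% of Kat2b (with the pseudogene Kat2b-ps), 6.79% of Brd2 (with H2-DMa) and 0.042% of Ep300. For Crebbp, Kat2a, Kat6a, Kat7 and Brd3 no such window was found. These windows are those of GENCODE transcripts, matched on either strand, whereas the deposited values rest on RefSeq. How the authors' counting treated reads from shared windows was not stated. Whether such windows bear on the levels of Kat5, Kat2b and Brd2 is therefore not known. Within the deposited tables, only Brd3 lies over another gene, the microRNA gene Mir7578.

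All 9 genes were at 6.76 FPKM or more in every group. Brd2 was the most abundant transcript per length, with 61.5 FPKM in WT-vehicle and 57.9 in WT-RGFP109, against 57.8 in R6/1-vehicle and 59.5 in R6/1-RGFP109, and Kat2b the least abundant, with 7.0, 6.76, 7.10 and 7.43 FPKM in the same order. The highest level was 8.80 times the lowest in WT-vehicle and 8.13 times in R6/1-vehicle. In WT-vehicle, the order from high to low was Brd2, Kat2a, Kat5, Kat7, Brd3, Ep300, Kat6a, Crebbp and Kat2b. Kat2a and Kat5 had a ratio of only 1.002 there and changed places in the 3 other groups. Crebbp stood below Kat6a in both WT groups (8th of 9) and above it in both R6/1 groups (7th of 9). Neighbours in this order that were within a factor of 1.2 of each other in every group were Kat2a and Kat5, and Kat6a and Crebbp, and whether they differ beyond the spread between mice cannot be said from pooled values.

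**Figure D1:**
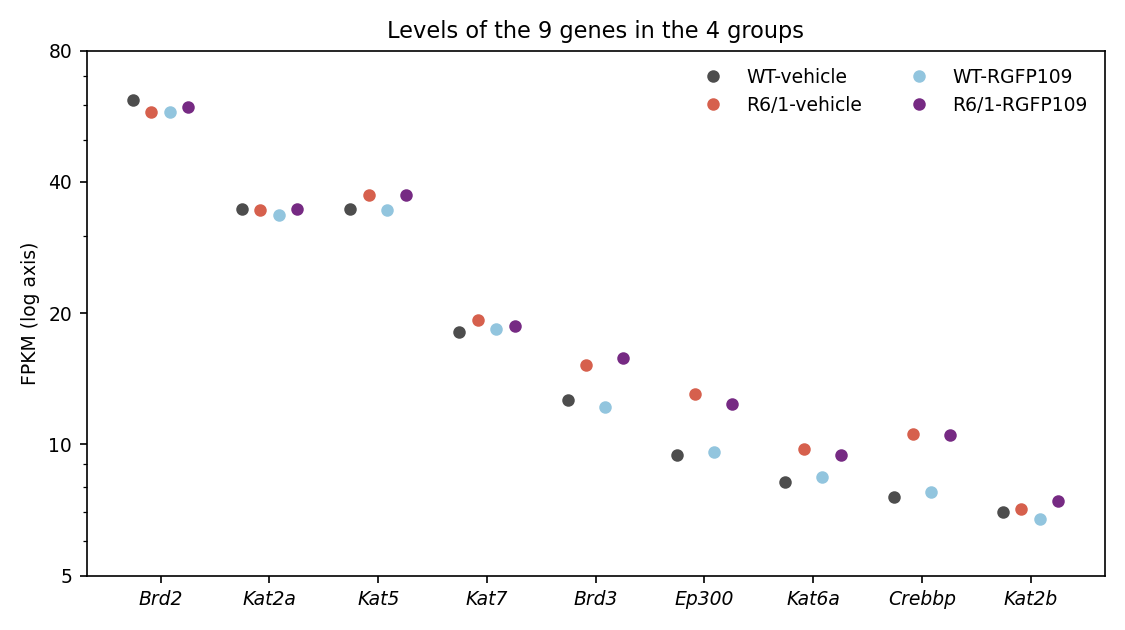
Level of each gene in FPKM on a log axis, with 1 point per group (WT-vehicle, R6/1-vehicle, WT-RGFP109 and R6/1-RGFP109) that is the authors' pooled value, averaged over 3 tables on a common scale. Both R6/1 points lie above both WT points for 7 of the 9 genes, by the most for Crebbp, Ep300 and Brd3, and by little for Kat2b and Kat7, while Kat2a and Brd2 show no such order.

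Crebbp and Ep300, which encode the KAT3 acetyltransferases, had the largest genotype differences of the 9 genes in vehicle-treated mice. Crebbp (chr16:4084048-4213404) was at 7.56 FPKM in WT-vehicle and 7.76 in WT-RGFP109, against 10.6 in R6/1-vehicle and 10.5 in R6/1-RGFP109. Both R6/1 values were thus above both WT values, and the values of the groups of the same genotype lay close to each other. In the table of the vehicle groups, Crebbp was 1.40 times as high in R6/1 as in WT (log2 difference 0.48), and in that of the RGFP109 groups 1.36 times (0.44). The gap of 0.044 between these differences was smaller than the median gap over all genes.

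Ep300 (chr15:81586214-81652077) was at 9.45 FPKM in WT-vehicle and 9.61 in WT-RGFP109, against 13.1 in R6/1-vehicle and 12.4 in R6/1-RGFP109. Again no R6/1 value reached down to a WT value. The R6/1 to WT ratio was 1.38 in vehicle-treated mice (log2 difference 0.47) and 1.29 in RGFP109-treated mice (0.36), which is a gap of 0.10. Among the 13886 genes of the vehicle comparison, Crebbp ranked 627th and Ep300 673rd from the top, at the 95.5th and 95.2nd percentiles. Across all 4 pairings of an R6/1 with a WT group, the lowest log2 difference was 0.44 for Crebbp and 0.36 for Ep300, and 2.04% and 3.16% of 13597 genes had a lowest difference at least as high. These pairings reuse the same 4 pooled values and are not separate measurements.

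No gene of the 9 passed an absolute log2 difference of 0.5 between genotypes, either in vehicle-treated mice, where 4.25% of all genes were higher and 10.8% lower by that much in R6/1, or in RGFP109-treated mice, where 3.81% were higher and 9.29% lower. At 0.25, Crebbp, Ep300 and Brd3 were higher in R6/1 in both comparisons and no gene of the 9 was lower. At this lower fold, 15.7% of all genes were higher and 23.2% lower in vehicle-treated R6/1 mice, and 13.3% and 20.2% in RGFP109-treated R6/1 mice. The median log2 difference of the 9 genes was 0.10 in vehicle-treated and 0.14 in RGFP109-treated mice, against medians over all genes of -0.0084 and 0.0095. R6/1 was above WT for 7 of the 9 genes in vehicle-treated mice (48.9% of all genes) and for 9 of 9 in RGFP109-treated mice (51.6% of all genes).

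The GNAT genes showed little difference between genotypes. Kat2a (chr11:100704746-100712467) was at 34.8 FPKM in WT-vehicle and 33.6 in WT-RGFP109, against 34.5 in R6/1-vehicle and 34.7 in R6/1-RGFP109, with log2 genotype differences of -0.012 and 0.049 that were opposite in sign. For Kat2b (chr17:53566971-53672721), whose levels are given above, the genotype differences were 0.021 and 0.14, apart by 0.12. Kat2a was 4.97 times as abundant per length as Kat2b in WT-vehicle, 4.86 times in R6/1-vehicle, 4.97 times in WT-RGFP109 and 4.68 times in R6/1-RGFP109. The balance of these paralogs within a group, which no scaling between libraries can alter, thus moved by at most 0.088 on the log2 scale.

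Among the MYST genes, Kat6a had the largest genotype difference in both treatments. Kat6a (chr8:22859539-22943262) was at 8.19 FPKM in WT-vehicle and 8.42 in WT-RGFP109, against 9.74 in R6/1-vehicle and 9.45 in R6/1-RGFP109, with log2 genotype differences of 0.25 and 0.17 that placed it at the 84.1st and 77.3rd percentiles of all genes. Kat5 (chr19:5603014-5610094) was at 34.7, 34.6, 37.3 and 37.4 FPKM in the same order of groups. Its differences of 0.10 and 0.11 were small, but its gap of 0.011 between treatments was the narrowest of the 9 genes. Kat7 (chr11:95271853-95310246) was at 18.1, 18.4, 19.3 and 18.7 FPKM, with differences of 0.088 and 0.026. Kat6a was at 0.451 of the level of Kat7 in WT-vehicle and 0.458 in WT-RGFP109, and at 0.505 in both R6/1 groups. Against its closest paralog Kat6b, which was at 9.68, 9.49, 10.6 and 10.8 FPKM, Kat6a stood at 0.847 in WT-vehicle and 0.887 in WT-RGFP109, against 0.919 in R6/1-vehicle and 0.873 in R6/1-RGFP109, a range of 0.12 on the log2 scale with no common order of the genotypes.

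The BET readers differed from each other. Brd3 (chr2:27445581-27475673) was at 12.6 FPKM in WT-vehicle and 12.2 in WT-RGFP109, against 15.2 in R6/1-vehicle and 15.8 in R6/1-RGFP109, with both R6/1 values above both WT values. Its log2 genotype difference was 0.27 in vehicle-treated mice and 0.37 in RGFP109-treated mice, at the 85.9th and 93.3rd percentiles of all genes. Brd2 (chr17:34112019-34122607) was lower in R6/1 by 0.091 on the log2 scale with vehicle, and higher by 0.039 with RGFP109, apart by 0.13, the widest gap of the 9 genes. Brd2 was 4.87 times as abundant per length as Brd3 in WT-vehicle and 4.74 times in WT-RGFP109, but 3.79 and 3.77 times in R6/1-vehicle and R6/1-RGFP109. This ratio moved by 0.37 on the log2 scale over the 4 groups, the most of the 5 paralog ratios examined. The ratio of Crebbp to Ep300 moved by 0.089, from 0.80 in WT-vehicle to 0.851 in R6/1-RGFP109, with 0.810 in R6/1-vehicle and 0.808 in WT-RGFP109.

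**Figure D2:**
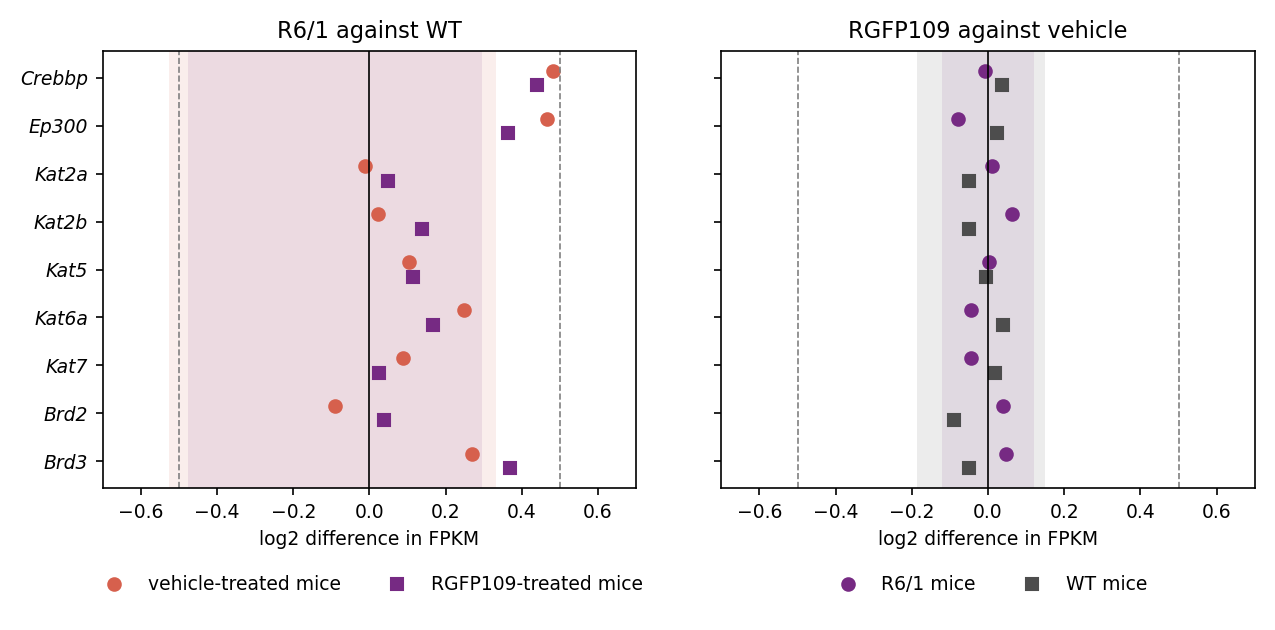
Log2 difference in FPKM of each gene for R6/1 against WT (left) and for RGFP109 against vehicle (right), with 1 symbol for each treatment or genotype as named under the panels. Shaded bands run from the 10th to the 90th percentile of all genes of at least 1 FPKM in the comparison of the same colour, and dashed lines mark 0.5 in either direction. Crebbp and Ep300 lie to the right of the bands in both genotype comparisons, Brd3 in RGFP109-treated mice, and all 9 genes lie inside the bands for treatment.

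The levels of the 9 genes differed little between RGFP109 and vehicle. In R6/1 mice, the log2 difference between RGFP109 and vehicle ran from -0.079 for Ep300 to 0.063 for Kat2b, and in WT mice from -0.089 for Brd2 to 0.039 for Kat6a. No gene of the 9 passed 0.5 in either comparison, where 3.24% of all genes in R6/1 and 4.22% in WT did so in either direction, and none passed 0.25, where 7.17% and 11% did. The median of the 9 genes was 0.0037 in R6/1 and -0.0052 in WT mice. The sign of the treatment difference was opposite in R6/1 and WT mice for all 9 genes, whereas 49.9% of 13405 genes had the same sign in both. These differences were at most 0.089 in size, and for Kat5 they were 0.0037 and -0.0052, so that their signs say little. The gaps between the treatment differences in the genotypes ran from 0.0089 for Kat5 to 0.13 for Brd2, with a median of 0.083 that was close to the median gap of 0.086 over all genes. These gaps are not separate from those between the genotype differences, since both come from the same 4 pooled values.

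Crebbp differed by -0.0089 between RGFP109-treated and vehicle-treated R6/1 mice, and treated R6/1 mice remained above WT-vehicle by 0.48 on the log2 scale (10.55 against 7.57 FPKM in the table of these groups). Ep300 was 0.079 lower in treated than in vehicle-treated R6/1 mice. Its difference of R6/1-RGFP109 from WT-vehicle was 0.39, beside 0.47 for R6/1-vehicle. For Brd3 the difference from WT-vehicle was 0.32 with RGFP109, beside 0.27 with vehicle.

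Genes of the same pathway were examined in 7 further lists of 107 genes, also chosen with earlier results of these data known. Of the 107 genes, 105 had at least 1 FPKM in either group of each of the 4 comparisons. Of these, 2 were higher and 2 lower in R6/1 by over 0.5 with vehicle (4.25% and 10.8% of all genes), 1 was higher and 1 lower with RGFP109 (3.81% and 9.29% of all genes), and none passed 0.5 between RGFP109 and vehicle in either genotype. The median of the 105 genes was 0.11 with vehicle and 0.10 with RGFP109, beside the medians near 0 over all genes given above, and 80 and 77 of the 105 were above 0, beside 48.9% and 51.6% of all genes.

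None of the 13 other acetyltransferase genes passed 0.5 between genotypes. Of all genes, 4.25% were higher and 10.8% lower by that much with vehicle, and 3.81% and 9.29% with RGFP109. The median of the 13 genes was 0.15 with vehicle and 0.17 with RGFP109. Taf1, the largest TFIID subunit, differed by 0.39 and 0.27 in these comparisons, and Ncoa2, a nuclear receptor co-activator, by 0.31 and 0.22. The lowest were Naa60, an N-terminal acetyltransferase that also acts on histone H4, at -0.15 and -0.15, and Ncoa3, another nuclear receptor co-activator, at -0.082 and -0.045.

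Of the other bromodomain and YEATS readers, 32 of 34 had at least 1 FPKM. With vehicle, 2 of the 32 were higher and 1 lower in R6/1 by over 0.5 (4.25% and 10.8% of all genes). With RGFP109, 1 was higher and 0 were lower (3.81% and 9.29% of all genes). Atad2b, an AAA ATPase with a bromodomain, was at 2.55 FPKM in WT-vehicle and 2.55 in WT-RGFP109, against 4.59 in R6/1-vehicle and 5.04 in R6/1-RGFP109. Its log2 genotype differences of 0.84 and 0.97 made it the only reader past 0.5 in both treatments. Trim66 was higher in R6/1 by 0.52 with vehicle and by 0.36 with RGFP109. Brdt, the BET family member known from the testis, was at 3.77 FPKM in WT-vehicle and 2.52 in R6/1-vehicle, with log2 differences of -0.57 and -0.46. Zmynd8, a reader with PHD, bromodomain and PWWP modules, differed by -0.44 and -0.39. The median of this list was 0.11 with vehicle and 0.078 with RGFP109.

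**Figure D3:**
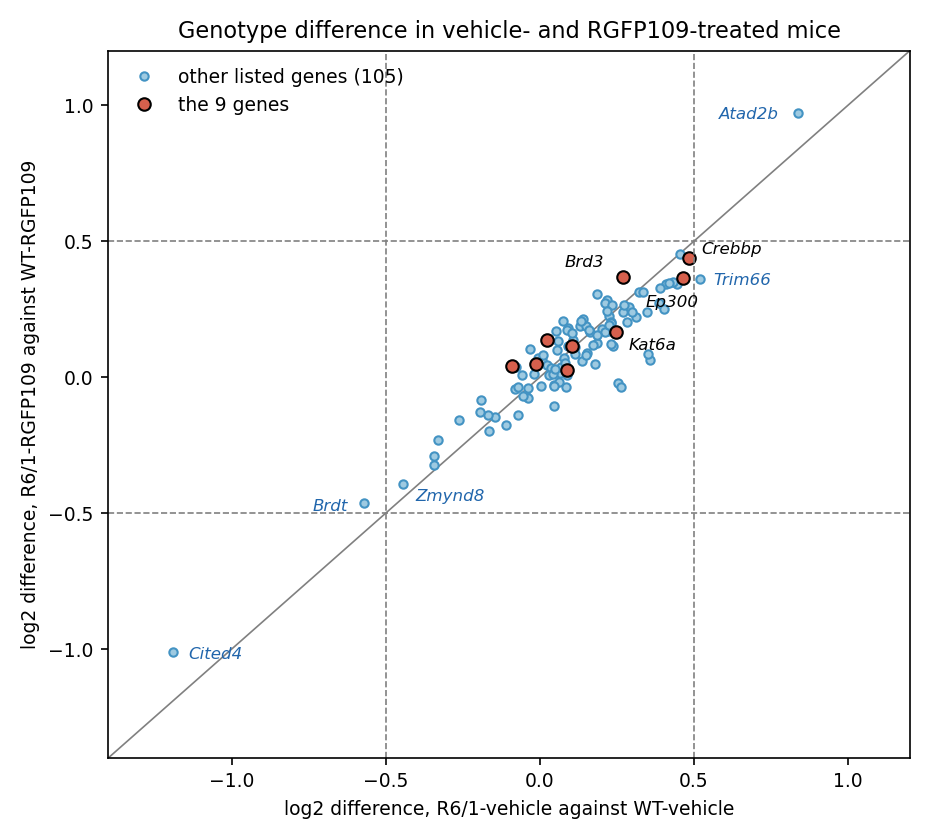
Log2 genotype difference in RGFP109-treated mice (vertical axis) against that in vehicle-treated mice (horizontal axis), with 1 point per gene for the 9 genes (red) and the 105 other listed genes of at least 1 FPKM (blue). The line marks equal differences and dashed lines mark 0.5 in either direction. Atad2b and Cited4 lie beyond 0.5 on both axes. Crebbp (0.48 and 0.44) and Ep300 (0.47 and 0.36) lie inside it, with Ep300 further inside on the vertical axis.

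In the complexes of the acetyltransferases, no gene passed 0.5 between genotypes. The shares of all genes that did so were 4.25% higher and 10.8% lower with vehicle, and 3.81% and 9.29% with RGFP109. Of 22 SAGA and ATAC partners, 18 were above 0 with vehicle (48.9% of all genes) and 19 with RGFP109 (51.6% of all genes), with medians of 0.098 and 0.11. Supt20, a core SAGA subunit, differed by 0.42 and 0.34 and Tada1 by 0.27 and 0.24, while Taf6l (-0.19 and -0.086) and Atxn7l3 of the deubiquitinase module (-0.17 and -0.14) were lowest. Of 15 NuA4/TIP60 partners, 12 were above 0 with vehicle and 9 with RGFP109, beside the same shares of all genes, with medians of 0.075 and 0.12. The MRG domain protein genes Morf4l2 (0.45 and 0.45) and Morf4l1 (0.32 and 0.31) were highest, and the lowest were Actl6b (-0.34 and -0.32), an actin-related subunit of neurons that also belongs to BAF complexes, and Mrgbp (-0.20 and -0.13). Of 5 MOZ and HBO1 partners, 4 were above 0 with vehicle and 3 with RGFP109, beside the same shares, with medians of 0.15 and 0.011. There Jade3 differed by 0.26 with vehicle and by -0.036 with RGFP109, Jade1 by 0.23 and 0.12, Jade2 by 0.043 and 0.011, and Ing4 by -0.26 and -0.16.

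P-TEFb, the kinase that releases paused RNA polymerase II and is recruited by BET proteins, consists of Cdk9 and a cyclin T. Cdk9 differed by -0.071 with vehicle and by -0.14 with RGFP109, Ccnt2 by -0.053 and -0.070, and Ccnt1 by 0.35 and 0.083. The methyltransferase gene Whsc1l1, also known as Nsd3, differed by 0.35 and 0.24. The median of these 9 P-TEFb and BET partners was 0.19 and 0.15. None passed 0.5 between genotypes, beside 4.25% of all genes higher and 10.8% lower with vehicle, and 3.81% and 9.29% with RGFP109.

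Of 9 listed factors that work with CBP and p300, Cited4 was at 8.80 FPKM in WT-vehicle and 7.38 in WT-RGFP109, against 3.83 in R6/1-vehicle and 3.63 in R6/1-RGFP109. CITED proteins bind the CH1 domain of CBP and p300, and Cited4 was lower in R6/1 by 1.19 on the log2 scale with vehicle and by 1.01 with RGFP109. Its relative Cited2 was higher by 0.39 and 0.33. Creb1, the cAMP-responsive factor that recruits CBP, differed by 0.33 and 0.31, and Crtc1, its neuronal co-activator, by -0.34 and -0.29. The median of this list was 0.0036 and 0.10.

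For each of the 9 genes, the listed gene with the most similar pattern over the 4 groups was the one with the smallest root mean square distance between centred log2 levels, among 113 listed genes. For Crebbp this was Morf4l2 (distance 0.012, beside a median of 0.18 over the listed genes), for Ep300 Supt20 (0.021 beside 0.16), for Kat6a Dr1 (0.015 beside 0.074) and for Brd3 Creb1 (0.035 beside 0.11). For the other genes, it was Smarca4 for Kat2a (0.018), Crtc3 for Kat2b (0.023), Trim24 for Kat5 (0.0097), Trrap for Kat7 (0.013) and Taf10 for Brd2 (0.027). The smallest of 113 distances lies below their median by construction, so the medians only give the scale. A pattern over 4 pooled values rests on few points and largely restates the genotype differences given above.

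The genotype difference over all genes moved with the length and the GC content of the transcript. Crebbp, Ep300 and Kat6a have long transcripts, and Brd2 and Brd3 differ in GC content. Lengths and GC contents are those of the longest protein-coding GENCODE transcript, found for 12516 genes of the vehicle comparison (90.1%), in bins that were chosen after the data had been seen. In vehicle-treated mice, the median log2 difference was -0.077 for the 1655 genes up to 1500 bases and 0.12 for the 481 genes above 9000 bases. In RGFP109-treated mice these medians were -0.017 and 0.052. By GC content, the median with vehicle was 0.18 up to 42% and -0.14 above 54%, and with RGFP109 0.11 and -0.076.

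Crebbp (10820 bases, 51.7% GC), Ep300 (9566 bases, 51.1%) and Kat6a (9113 bases, 47.5%) all belong to the longest bin. With vehicle, 25 of its 481 genes were above Crebbp, 29 above Ep300 and 144 above Kat6a. With RGFP109, 15 of 479 genes were above Crebbp, 19 above Ep300 and 128 above Kat6a. By GC content, Crebbp and Ep300 lie in the bin from 50% to 54%, with medians of -0.033 with vehicle and -0.0074 with RGFP109. There 70 of 2636 genes were above Crebbp and 79 above Ep300 with vehicle, and 74 and 122 of 2618 with RGFP109. The GC bin of Kat6a had medians of 0.042 and 0.033, with 445 of 2627 and 608 of 2612 genes above it. Among the 70 genes that were both above 9000 bases and between 50% and 54% GC, the median with vehicle was 0.023, and 3 were above Crebbp and 5 above Ep300. Brd3 (5419 bases, 51.3% GC) had 224 of the 2636 genes of its GC bin above it with vehicle and 113 of 2618 with RGFP109. Brd2 (4657 bases, 57.7% GC) lies in the bin above 54% GC. The median of that bin was -0.14 with vehicle and -0.076 with RGFP109, beside -0.033 and -0.0074 for the bin of Brd3. The ratio of Brd2 to Brd3 is thus one of genes from different GC bins. The part of length and GC content in the differences was not tested.

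**Figure D4:**
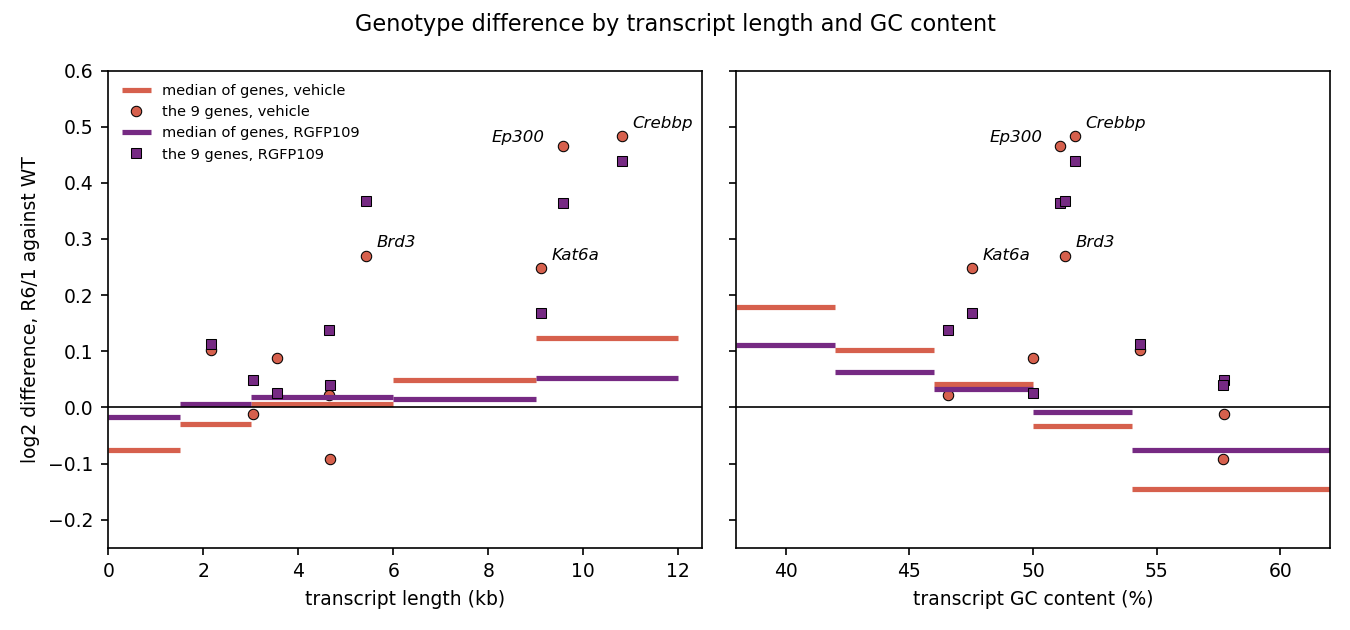
Log2 genotype difference against transcript length in kb (left) and GC content in percent (right), with horizontal bars for the median of all genes in a bin and points for the 9 genes, in vehicle-treated (red) and RGFP109-treated mice (purple). The longest bin and the GC bins at either end are open-ended, and their bars are cut off at fixed limits beyond the points. In both treatments the longest bin has the highest median and the shortest the lowest, medians fall from bin to bin with GC content, and Crebbp, Ep300 and Brd3 lie above the bar of their bin in each panel.

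Striatal tissue was checked by markers of its cell types. The 8 markers of striatal projection neurons were present in every group, from 26.1 FPKM upward, and 7 of 8 were lower in R6/1 by over 0.5 in both treatments, with medians of -1.31 and -1.36. Their summed level was 3195 FPKM in WT-vehicle and 3064 in WT-RGFP109, against 1232 in R6/1-vehicle and 1104 in R6/1-RGFP109. In bulk tissue, fewer cells of a type and less RNA per cell cannot be told apart. Other lists moved with genotype as well. The 6 neocortical markers summed to 351, 324, 194 and 246 FPKM in the same order of groups, with 6 of 6 lower by over 0.5 in R6/1-vehicle and none in R6/1-RGFP109. The 5 oligodendrocyte markers summed to 4369, 3397, 2390 and 2706 FPKM, with 4 of 5 lower by over 0.5 in R6/1-vehicle and none in R6/1-RGFP109.

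The 5 astrocyte markers summed to 348, 352, 272 and 262 FPKM, with 1 of 5 lower by over 0.5 in R6/1-RGFP109 and none in R6/1-vehicle. The 5 microglial markers summed to 106, 106, 87.5 and 85.2 FPKM with none past 0.5, and the 4 endothelial markers to 23.0, 19.1, 16.2 and 14.5 FPKM with 1 of 4 lower in both. The 3 ependymal markers summed to 17.4, 10.6, 12.7 and 12 FPKM, with 1 of 3 lower in R6/1-vehicle and 3 of 3 lower in WT-RGFP109 against WT-vehicle. The 6 choroid plexus markers summed to 1480, 320, 629 and 39.0 FPKM, and 6 of 6 were lower by over 0.5 with RGFP109 in both genotypes. Between genotypes, 5 of 6 were lower by over 0.5 in R6/1-vehicle (median -1.03). In R6/1-RGFP109 against WT-RGFP109, 4 of the 5 with at least 1 FPKM were lower (median -1.62). Folr1, Otx2 and Aqp1 among them were under 1 FPKM in at least 1 group, and no marker was listed at 0. The treatment differences of the 9 genes were at most 0.089 in size beside these shifts. The part of cell makeup in the differences of the 9 genes was not tested.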

How the data were processed

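Male R6/1 and WT mice were compared by RNA-seq of the striatum. The authors sequenced single 51-base reads from TruSeq libraries in 2 pools (strand not stated), aligned them to RefSeq mm10 with STAR 2.5.0b and computed FPKM with Cufflinks 2.2.1 and Cuffdiff. The deposited FPKM values are 1 pooled value per group in each of 6 pair tables, scaled within the pair. The other columns hold the authors' fold changes, test statistics, p-values and q-values and were not used. No column holds a single library, so that depth is unknown, and no interval, SD or test was computed from the pooled values. This also limits precision to what the comparison of groups that share no mouse shows.

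Coordinates are those of the tables with 1 added to the start. Tables were brought to a common scale by median ratios over genes of at least 1 FPKM, a step that was tested on simulated data. A difference was called past the fold above 0.5 on the log2 scale, the fold that the study uses. Sequences were compared with Biopython 1.88 on GENCODE vM21. Named from each further list were the 2 genes with the highest and the 2 with the lowest difference for R6/1-vehicle against WT-vehicle, and any gene past 0.5 in both genotype comparisons. The members and lists were chosen with earlier results of these data known. Alternatives were other pseudocounts, minimum FPKM values, folds, scalings and single tables. Analyses used Python 3.11.15, numpy 2.4.6 and pandas 2.3.3.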

Additional observations from a re-analysis of the deposited data

How the results depend on the processing

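For the 9 genes and their median, none of 160 log2 differences under an alternative (no pseudocount, a pseudocount of 1 FPKM, centring on the median gene, the mean over 3 tables) changed sign, and the largest move was 0.046, under the median gaps of 0.087 and 0.086 used as the spread. A change of pseudocount cannot change a sign, and the mean over 3 tables reuses the same pooled values. The unchanged signs therefore say nothing of the spread between mice. At a fold of 0.25 in place of 0.5, 3 of the 9 genes passed in each genotype comparison, where none did at 0.5. The counts over all genes followed the settings by construction, since a lower fold or minimum admits more genes. For R6/1-vehicle against WT-vehicle 2094 genes passed, with 5401 at a fold of 0.25, 3414 with no minimum FPKM and 1292 at a minimum of 5 FPKM. For R6/1-RGFP109 against WT-RGFP109 the count was 1816, with 4646, 3012 and 1089 in the same order. For R6/1-RGFP109 against R6/1-vehicle it was 445, with 983, 1045 and 296. For WT-RGFP109 against WT-vehicle it was 581, with 1520, 1458 and 346. No paired analysis was possible because each table holds 1 pooled value per group, and for the same reason no replicate could be left out.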
